A study of Oryctolagus cuniculus with 30 samples.

Results

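Carbonic anhydrases CA2, CA3, CA9, CA12, CA13 and CA14 were followed in the vocal folds of New Zealand white rabbits, sampled as dissected mucosa. These 6 genes were taken by symbol from the 31346 genes counted, and all 6 were found and passed the filter on low counts. CA9 and CA14 were included because they had been seen to fall in these data, CA9 in injury_only against control and CA14 in VFLP_man against injury_only, so their values in comparisons that use those groups are given as descriptions without a test. CA2, CA3, CA12 and CA13 were added as relatives. RNA was sequenced from 15 animals, 3 in each of 5 groups, with the left and right fold of each as separate libraries (30 in all).

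Control animals had no injury and no injection. In the injury_only group the superficial mucosa was stripped on both sides and nothing was injected. The 3 other groups had the same stripping and, 7 days later, 20 µL injected into each fold: type I collagen (Col1), VFLP (man) or VFLP (au). The last 2, called VFLP_man and VFLP_au below, are hydrogels made from vocal fold lamina propria, going by the series title. Rabbits were killed and sampled 28 days after treatment, with no time listed for control, and for injury_only the start of that interval is not given in the sources used here. The labels name no age or sex and do not spell out man and au.

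Carbonic anhydrases are zinc enzymes that interconvert carbon dioxide and water with bicarbonate and a proton. CA2 and CA13 are cytosolic, CA3 is a cytosolic form of low activity that is abundant in slow skeletal muscle fibres and in fat cells, and CA9, CA12 and CA14 are anchored in the cell membrane with the active site outside the cell. CA9 is a classic target of hypoxia-inducible factor, CA12 is found in many secretory epithelia, and CA14 is known from the surface membrane of muscle fibres. In the RefSeq gene table of the mOryCun1.1 rabbit assembly, used for names and gene order alone, CA13, CA1, CA3 and CA2 follow each other, with 1 unnamed gene between CA1 and CA3.

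Libraries held 14.2 to 31.9 M reads on genes (median 22.7 M, M being 1e+06). Levels are CPM, that is counts per M reads, after TMM scaling, a correction for library composition, with the folds of an animal summed and the SD taken over 3 animals. CPM is not corrected for gene length, so levels are compared between groups and never between genes. Squamous and basal epithelium markers, which mark the fold's surface, were found in all groups (11 of 12 and 8 of 9 listed genes in the tables, none at 0 in a group). Skeletal muscle reads were present too and differed by group: control animals had 2.65 ± 0.664% of their gene reads on 13 muscle genes (SD over 3 animals). The mean was 0.891 ± 0.288% for injury_only, 0.635 ± 0.239% for VFLP_au, 0.376 ± 0.177% for Col1 and 0.145 ± 0.118% for VFLP_man. None of the 13 was at 0 in a group. All control libraries are in batch C with 5 of injury_only, and all libraries of the injected groups are in batch D with the remaining 1 of injury_only, so group and batch cannot be told apart between injected animals and control. In whole tissue, fewer cells of a type and less RNA per cell cannot be told apart either.

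**Figure D1:**
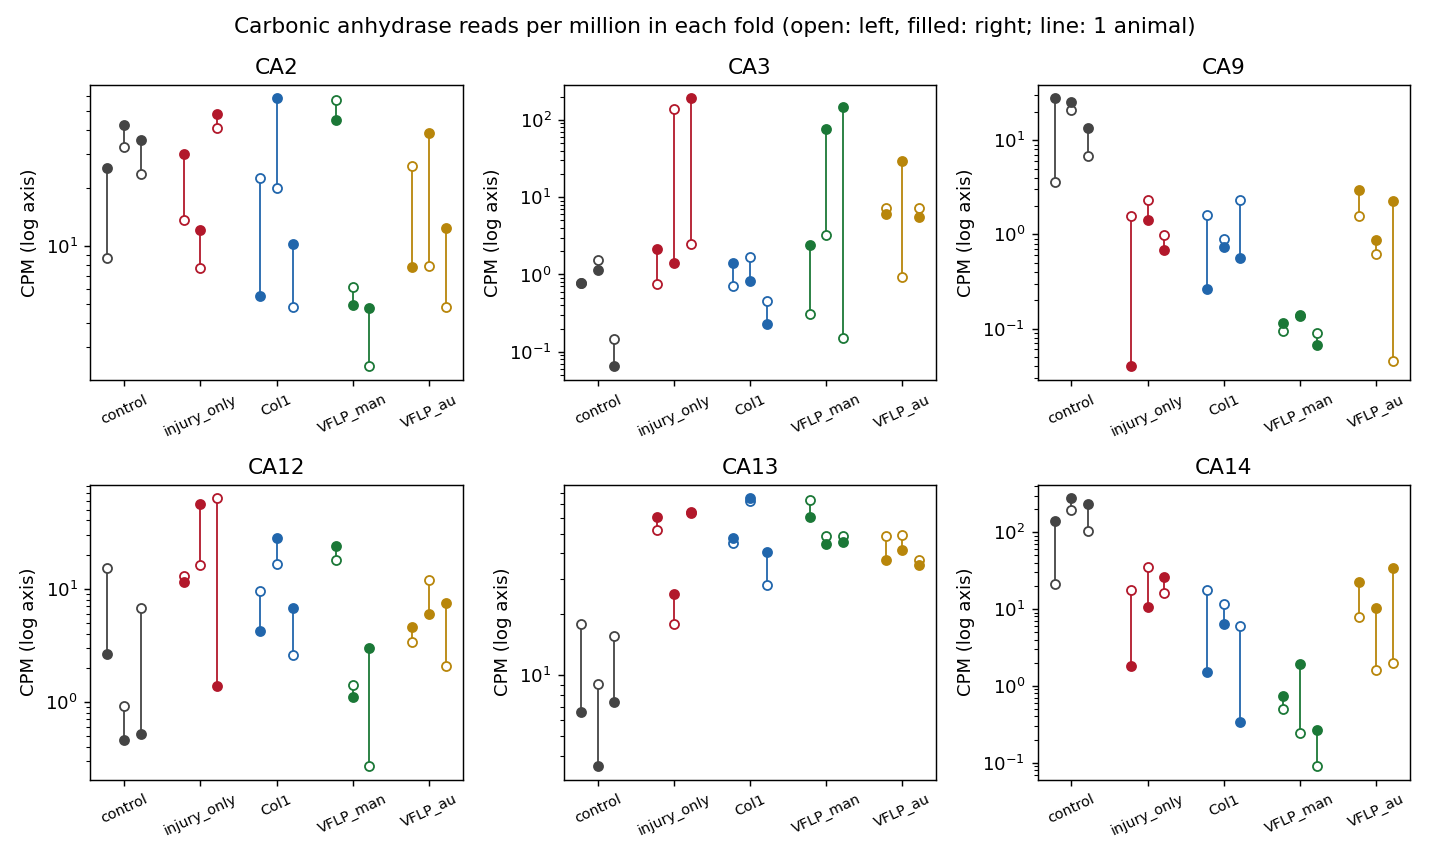
CPM of each carbonic anhydrase (log axis) in every library, by group. Open points are left folds, filled points right folds, and a line joins the folds of 1 animal. CA14 and CA9 sit highest in control, CA13 lowest in control, and CA3 exceeds 29 CPM in 5 single folds.

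CA14, the membrane-bound enzyme known from muscle, was highest in uninjured folds. The 3 control animals had 74.7, 230 and 163 CPM, from 3585, 5170 and 5708 reads. In injury_only the animals had 9.76, 23.6 and 21.2 CPM, in VFLP_au 15.2, 5.28 and 17.4 CPM, and in Col1 7.17, 9.14 and 3.08 CPM. VFLP_man animals had 0.604, 1.16 and 0.176 CPM, from 35, 76 and 11 reads. Control animals were thus above all 12 injured animals, and VFLP_man animals below every other animal, while injury_only overlapped VFLP_au and VFLP_au overlapped Col1. Group by group, 21.5 to 23.9% of genes were lower without overlap in injured animals than in control, and 20.3 to 25.1% higher. VFLP_man was lower without overlap than the other injured groups for 7.96 to 13.2% of genes, and higher for 5.65 to 11.7%. From the highest group to the lowest the means were 156 ± 78.1 CPM (control), 18.2 ± 7.39 (injury_only), 12.6 ± 6.48 (VFLP_au), 6.47 ± 3.09 (Col1) and 0.646 ± 0.493 (VFLP_man).

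Fitted differences of CA14 that involve injury_only or VFLP_man are descriptions, because such a difference brought the gene in. CA14 was lower in injury_only than in control by a log2 fold change of -2.93 (SE 0.64), and lower in VFLP_man than in injury_only by -4.81 (SE 0.76), than in VFLP_au by -4.30 (SE 0.70) and than in Col1 by -3.32 (SE 0.67). Col1 against injury_only gave -1.49 (SE 0.65), and with a batch term, which rests on 1 injury_only library, 1.86. Comparisons of Col1 and VFLP_au with control use no animal of the one that drew CA14 in. There, CA14 fell by 4.61 on the log2 scale in Col1 (SE 0.73, edgeR adjusted p = 0.000874) and by 3.63 in VFLP_au (SE 0.70, edgeR adjusted p = 0.00354). With muscle level as a covariate the values were -1.79 (adjusted p = 0.398) and -1.41 (adjusted p = 0.459), and with a batch term -1.07 (adjusted p = 0.709) and -0.09 (adjusted p = 0.986). In left folds alone the Col1 value was -3.17 (adjusted p = 0.066). CA14 was chosen with earlier results of these data known, so its p-values are not those of a gene named beforehand.

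Within single animals CA14 went with the muscle content of the fold. In 15 of 15 animals the fold with the larger share of muscle reads also had the higher CA14 level, whichever side it was. Control animal 1, for example, had 21.3 CPM in its left fold, where muscle genes took 0.715% of reads, and 138 CPM in its right fold, where they took 3.22%. VFLP_au animal 3 had 1.97 and 34.5 CPM at 0.161% and 1.26%. Folds of the same animal differed in CA14 by a median of 3.30-fold, with 11 of 15 animals beyond 2-fold. The right folds of VFLP_man animals 2 and 3 had less CA14 than single folds of other groups, picked by hand for a roughly like muscle share. The right fold of VFLP_man animal 3 had 0.267 CPM of CA14 at 0.242% muscle reads. The folds set beside it matched unevenly, with 6.08 CPM at 0.346% in the left fold of Col1 animal 3 and 1.97 CPM at 0.161% in the left fold of VFLP_au animal 3. The right fold of VFLP_man animal 2 had 1.95 CPM at 0.485%, against 7.89 CPM at 0.491% in the left fold of VFLP_au animal 1. Both of these VFLP_man folds are among those with high CA3, described below, and the folds set beside them are not. At a low share the order was the other way, with 0.498 CPM at 0.0319% in the left fold of VFLP_man animal 1 and 0.339 CPM at 0.0377% in the right fold of Col1 animal 3. The part of muscle content in the group differences was not tested. Muscle shares of control and injured animals do not overlap, so the covariate fit cannot divide a difference from control between muscle content and group.

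The 3 genes with the most similar levels over the 15 animals, out of 12285 with a symbol and at least 1 CPM, were CLCN1 (Pearson r = 0.994 on log2 CPM), ASB15 (0.993) and KLHL33 (0.992). CLCN1 encodes the chloride channel of skeletal muscle. It stood at 41.3 ± 14.7 CPM in control and 7.74 ± 3.07 in injury_only. With injection the means were 6.71 ± 2.14 CPM for VFLP_au, 3.88 ± 1.23 for Col1 and 0.91 ± 0.708 for VFLP_man. These correlations describe 15 animals that share 5 group means.

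CA9, the hypoxia-inducible membrane enzyme, was also highest in control and lowest in VFLP_man. Control animals had 14.7, 23.2 and 9.88 CPM. Injury_only animals had 0.808, 1.89 and 0.799 CPM, Col1 animals 0.746, 0.818 and 1.41, and VFLP_au animals 2.29, 0.72 and 1.09. In VFLP_man the values were 0.104, 0.137 and 0.0800 CPM, from 6, 9 and 5 reads. Every injured library, 24 of 24, was below every control library, the nearest being 2.99 against 3.64 CPM. VFLP_man animals again lay below all others, while VFLP_au, injury_only and Col1 overlapped with each other. As given for CA14, 21.5 to 23.9% of genes were lower without overlap in an injured group than in control (20.3 to 25.1% higher). In VFLP_man against injury_only 13.2% of genes were lower without overlap and 11.7% higher.

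As a description, CA9 differed from control by a log2 fold change of -3.51 in injury_only (SE 0.52), -4.01 in Col1 (SE 0.55), -3.55 in VFLP_au (SE 0.54) and -7.20 in VFLP_man (SE 0.65). These 4 values share the control animals. VFLP_man differed from injury_only by -3.41 (SE 0.57). With a batch term, resting on 1 injury_only library with 1 CA9 read, the values were 1.09 for Col1 and 1.55 for VFLP_au against control, and 1.40 for VFLP_man against injury_only. Comparisons among injected groups use no animal of the comparison that drew CA9 in. There CA9 fell by 3.65 on the log2 scale in VFLP_man against VFLP_au (SE 0.55, edgeR adjusted p = 0.0438), the 1 of 5 members with a printed test that passed, against 0.0505% of 17815 genes. Each VFLP_man animal was below each VFLP_au animal, as for 8.77% of genes, while 5.65% of genes were higher without overlap. Without VFLP_man animal 1 or 3, or VFLP_au animal 1 or 3, the adjusted p was 0.0903 to 0.252. It was 0.0525 with DESeq2's size factors, 0.0628 with the replicate number as a block, 0.0703 without the batch term, 0.211 with muscle level as a covariate, and 0.567 and 0.125 in left and right folds alone. DESeq2 itself gave 7.62e-07. CA9 was chosen with earlier results of these data known, so its p-values are not those of a gene named beforehand. Against Col1, VFLP_man lay lower without overlap, as did 7.96% of genes, with 7.02% higher. The log2 difference was -3.19 (SE 0.55, adjusted p = 0.116 by edgeR and 8.94e-05 by DESeq2). VFLP_au against Col1 gave an edgeR adjusted p of 0.995.

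CA9 was higher in the fold with more muscle reads in 13 of 15 animals, in the fold with more reads on fibroblast genes in 14 of 15, and in the fold with more CA14 in 13 of 15. These counts include the VFLP_man animals, with 3 and 3, 4 and 5, and 3 and 2 CA9 reads in left and right folds. Which fold was higher there is within counting noise. Over the 15 animals its levels were most like those of DSCAM and ZCCHC24 (r = 0.976 each) and FGF10, a growth factor of connective tissue (r = 0.973). FGF10 averaged 13.8 ± 1.16 CPM in control and 3.90 ± 1.48 in injury_only, and 3.02 ± 0.635 (VFLP_au), 2.84 ± 0.886 (Col1) and 1.20 ± 0.147 CPM (VFLP_man) with injection.

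Other genes of the hypoxia response were examined as a list of 23, all measured. In injury_only against control 9 fell and 0 rose by edgeR, where 22.1% of 17815 genes passed in either direction, and the median log2 fold change was -0.50 against 0.02 for all genes. Against the same controls 2 rose and 10 fell in Col1, 5 rose and 11 fell in VFLP_man, and 3 rose and 11 fell in VFLP_au, where 32.1%, 37.3% and 27.5% of genes passed. Those of smallest p in injury_only were the vasodilator peptide ADM (17.8 ± 3.93 to 3.24 ± 1.25 CPM), the oxygen sensor EGLN1 (74.6 ± 20.1 to 30.8 ± 2.58 CPM) and PDK1, the kinase that inhibits pyruvate dehydrogenase (291 ± 114 to 94.4 ± 5.38 CPM). The list's share of gene reads was 1.28 ± 0.456% for control, 0.452 ± 0.0696% for injury_only, 0.392 ± 0.0531% for VFLP_au, 0.303 ± 0.0337% for Col1 and 0.244 ± 0.0118% for VFLP_man. Several of its members, such as the glycolytic ALDOA, are also abundant in muscle, whose reads moved in the same order. In VFLP_man against VFLP_au 0 of 23 passed, with a median of -0.20.

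**Figure D2:**
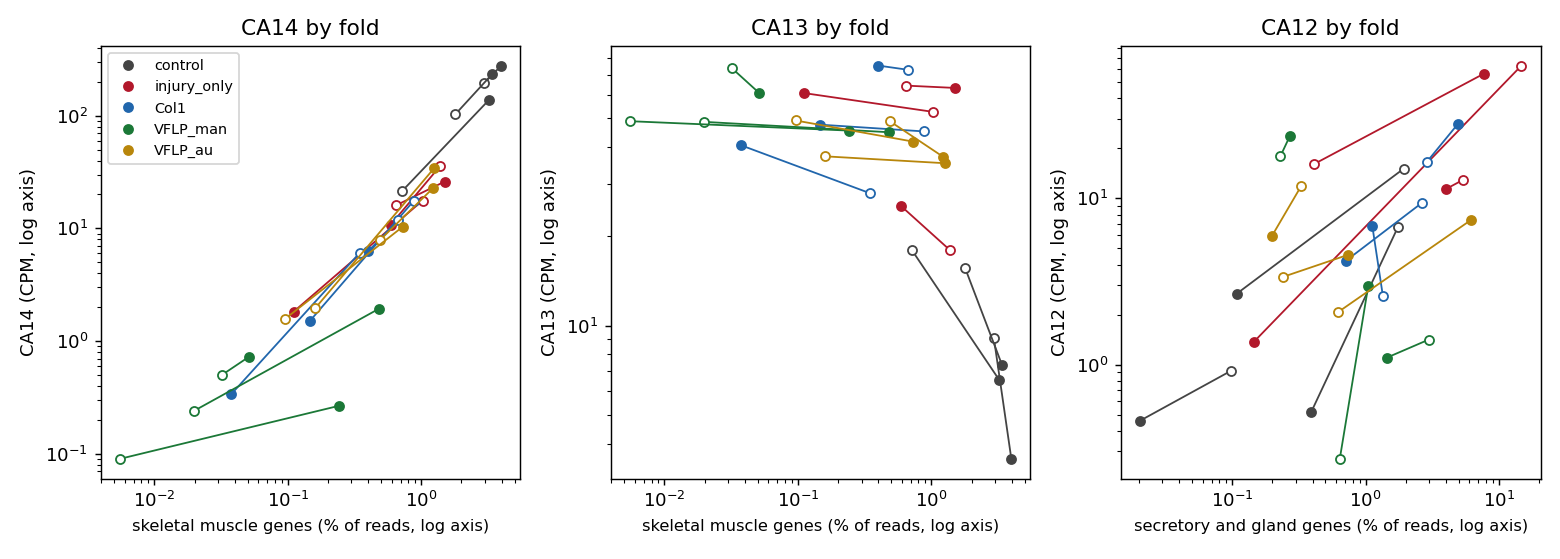
CA14, CA13 and CA12 CPM (log axes) in each fold against the share of gene reads on 13 skeletal muscle genes (left and middle panels) or on 12 secretory and gland genes (right panel). Open points are left folds, filled points right folds, and a line joins the folds of 1 animal. All 15 lines for CA14 run upward and all 15 for CA13 run downward with muscle share.

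CA13, a cytosolic enzyme, moved the other way from CA14 and CA9. Control animals had 12.3, 7.13 and 12.5 CPM. Injury_only animals had 56.5, 21.4 and 62.3 CPM, Col1 animals 46.9, 74.4 and 34.7, VFLP_man animals 68.2, 45.8 and 47.8, and VFLP_au animals 43.9, 45.7 and 36.5. All 12 injured animals lay above all 3 controls. Group by group, 20.3 to 25.1% of genes were higher without overlap in injured animals than in control, and 21.5 to 23.9% lower. Of the 24 injured libraries 23 exceeded every control library, and the exception, the left fold of injury_only animal 2, had 17.9 CPM, next to the left fold of control animal 1 with 17.9.

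CA13 rose 4.23-fold in injury_only against control (SE 0.39 on the log2 scale, edgeR adjusted p = 0.0041). It was higher in 3 of 3 injured animals, as were 20.8% of 17815 genes without overlap between the groups. The rise was 4.87-fold in Col1 (adjusted p = 0.00132), 5.03-fold in VFLP_man (adjusted p = 0.000754) and 3.96-fold in VFLP_au (adjusted p = 0.0039), each against the same 3 controls. Among the injured groups CA13 did not pass in any of 6 comparisons, with log2 differences from -0.30 to 0.35 and SE of 0.37. In the largest, VFLP_man over VFLP_au (edgeR adjusted p = 0.844), the groups were apart by 45.75 against 45.68 CPM alone. There 5.65% of genes were higher without overlap and 8.77% lower. With muscle level as a covariate the 4 comparisons with control gave log2 fold changes of 1.95, 1.96, 1.78 and 1.72 at adjusted p of 0.0608, 0.262, 0.511 and 0.294. Muscle shares of control and injured animals do not overlap. In left folds alone injury_only against control gave 1.66 (adjusted p = 0.141) and Col1 1.78 (adjusted p = 0.0635), and a batch term in the comparisons of Col1, VFLP_man and VFLP_au with control left values of 1.90, 1.94 and 1.59 at adjusted p of 0.296, 0.175 and 0.494.

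In 15 of 15 animals CA13 was lower in the fold with more muscle reads. CA14 was higher in that fold in 15 of 15, so it follows that CA13 was lower in the fold with more CA14 in each animal. Folds of an animal nevertheless differed less in CA13 than in the other members, by a median of 1.18-fold and by more than 2-fold in 3 of 15 animals. These 3 were the control animals, at 2.71-, 2.52- and 2.10-fold with the left fold higher in each. The largest difference in an injured animal was 1.45-fold. Its level over animals was most like that of SPTSSA, a subunit of the enzyme that starts sphingolipid synthesis (r = 0.951), REPS2 (0.947) and SHTN1 (0.944). SPTSSA averaged 32.1 ± 6.32 CPM in control and 63.5 ± 13.3 in injury_only. With injection its means were 80.8 ± 10.1 CPM (VFLP_man), 69.7 ± 7.71 (Col1) and 63.6 ± 0.946 (VFLP_au).

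CA3, the slow-fibre enzyme, was near the limit of counting in most folds and high in a few. The 3 control animals had 0.75, 1.43 and 0.114 CPM, from 36, 32 and 4 reads, and the Col1 animals 1.17, 1.28 and 0.338. Injury_only animals had 1.44, 72.1 and 105 CPM, VFLP_man animals 1.24, 42.4 and 70.8, and VFLP_au animals 6.87, 12.8 and 6.51. Control overlapped Col1 and VFLP_man, and injury_only overlapped VFLP_man. The lowest injury_only animal, at 1.44 CPM, was just above the highest control animal, at 1.43 CPM, whereas all VFLP_au animals lay above all Col1 and control animals.

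In the high animals CA3 came from 1 fold. Injury_only animal 2 had 139 CPM (3029 reads) in its left fold and 1.43 CPM (29 reads) in its right. Injury_only animal 3 had 2.50 CPM in its left fold and 190 CPM (4423 reads) in its right, VFLP_man animal 2 had 3.20 and 75.7 CPM, and VFLP_man animal 3 had 0.15 CPM (5 reads) and 147 CPM (4421 reads). VFLP_au animal 2 had 0.938 and 29.0 CPM. These 5 folds, 4 right and 1 left, held 93.0% of all CA3 reads, and the next highest library had 7.31 CPM. The 25 others had a median of 1.15 CPM.

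**Figure D3:**
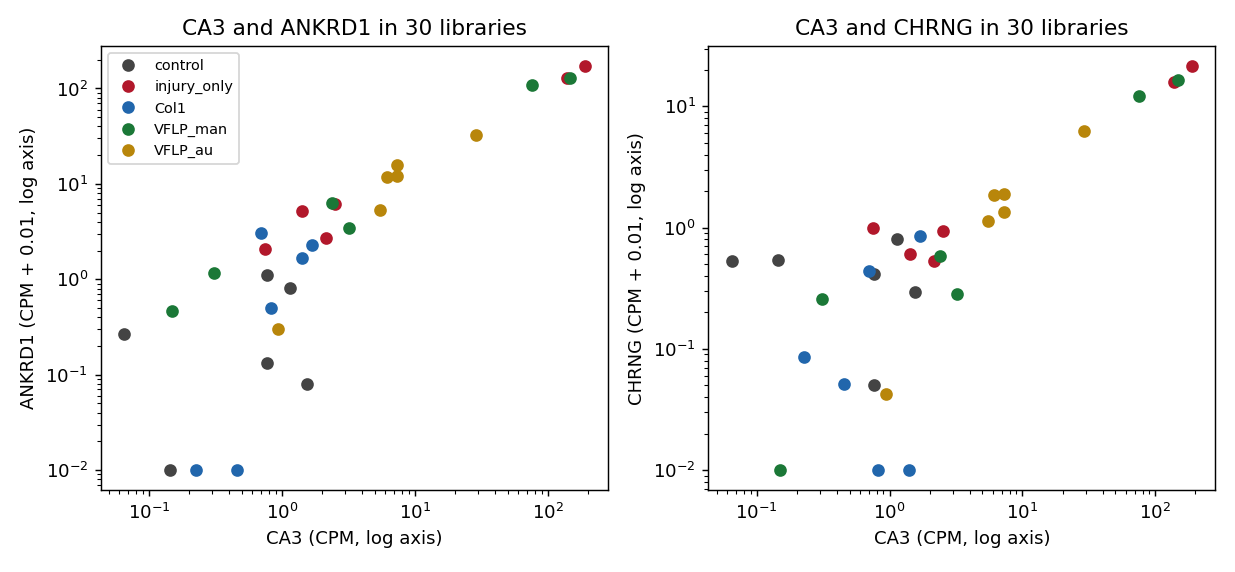
CPM of ANKRD1 (left) and CHRNG (right) against CA3 in the 30 libraries, on log axes with 0.01 CPM added to the vertical values, coloured by group. The 5 folds with CA3 above 29 CPM are also the 5 highest for both other genes.

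Muscle content did not order the folds for CA3 as it did for CA14. CA3 was higher in the fold with more muscle reads in 9 of 15 animals. Control folds, with 0.715 to 3.98% muscle reads, had at most 1.55 CPM, while the right fold of VFLP_man animal 3, with 0.242%, had 147 CPM. Adipocyte genes, listed because CA3 is also a fat cell gene, took 0.00625 to 0.0289% of reads in the 5 high folds and 0.0193 to 0.115% in control folds, and CA3 was higher in the fold with more of them in 5 of 15 animals. This share rests on few genes. In control LPL averaged 705 ± 509 CPM, against 54.2 ± 50.1 for FABP4 and 64.8 ± 8.55 for DGAT2. CIDEC had no reads in any group, so the share says little about fat cells. Genes listed for slow fibres took 0.0862 to 0.148% of reads in the 5 high folds and 0.138 to 0.369% in control folds. That share does not follow slow fibres alone. The left fold of VFLP_man animal 3 had 0.066% of reads on this list at 0.0055% muscle reads. ATP2A2, 1 gene of the list, averaged 455 CPM in VFLP_man.

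The genes most like CA3 over the 15 animals were ANKRD1 (r = 0.944), a stretch-responsive ankyrin repeat gene of striated muscle, CHRNG (0.930), the acetylcholine receptor subunit of fetal and denervated muscle, and COL19A1 (0.919), a collagen chain. The 5 highest libraries had the same order, rank 1 to 5, for CA3, ANKRD1 and CHRNG. In them ANKRD1 stood at 171, 129, 127, 109 and 32.2 CPM and CHRNG at 21.5, 16.6, 16, 12.3 and 6.31 CPM. COL19A1 took ranks 2, 3, 1, 4 and 6 there, with 7.77, 4.00, 11.6, 3.41 and 1.13 CPM. Control means were 0.344 ± 0.224 CPM for ANKRD1, 0.414 ± 0.18 for CHRNG and 0.176 ± 0.0629 for COL19A1. These folds were picked by their CA3 level, so the agreement is a description.

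By the fit over animals, CA3 rose 79.3-fold in injury_only against control (SE 1.68 on the log2 scale, edgeR adjusted p = 0.0201) and 50.8-fold in VFLP_man against control (SE 1.58, adjusted p = 0.0144), the last with groups that overlap. Over all genes 8.33% and 16.7% passed as higher in these comparisons. In injury_only against control the animals were apart by 1.44 against 1.43 CPM alone, where 20.8% of genes were higher without overlap and 21.5% lower. Without control animal 1, 2 or 3 injury_only against control had adjusted p of 0.0509, 0.0613 and 0.0627. In left folds alone the log2 fold change of VFLP_man against control was 0.59 (adjusted p = 0.836) in place of 5.67, and that of injury_only 5.89 (adjusted p = 0.145). With muscle level as a covariate the adjusted p was 0.0637 for injury_only and 0.353 for VFLP_man, and with a batch term 0.155 for VFLP_man. VFLP_au was higher than control without overlap, as were 20.3% of genes, by a log2 difference of 3.56 (SE 1.46, adjusted p = 0.0865 by edgeR and 0.0269 by DESeq2). Col1 was lower than injury_only without overlap by -6.01 (SE 1.58, adjusted p = 0.267 by edgeR and 0.00183 by DESeq2), where 11.1% of genes were lower without overlap. VFLP_au was higher than Col1 by 3.25 (SE 1.45, edgeR adjusted p = 0.995), one of the 4.48% of genes higher without overlap, against 4.71% lower.

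CA12, a membrane enzyme of secretory epithelia, varied widely within each group. Control animals had 9.02, 0.757 and 4.23 CPM, injury_only animals 12.1, 35.2 and 28, Col1 animals 6.08, 22.4 and 4.84, VFLP_man animals 20.6, 1.22 and 1.57, and VFLP_au animals 4.02, 9.34 and 4.62. Injury_only lay above control and above VFLP_au without overlap, as did 20.8% and 9.56% of genes. Neither difference passed: the log2 fold change was 2.43 against control (SE 1.10, adjusted p = 0.131 by edgeR and 0.0438 by DESeq2), and VFLP_au against injury_only gave -2.06 (SE 1.09, edgeR adjusted p = 0.428). Folds of an animal differed by up to 43.3-fold, in injury_only animal 3, with 63.1 CPM in the left and 1.37 CPM in the right.

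Secretory and gland genes took 14.7% of reads in that left fold and 0.146% in that right fold. CA12 was higher in the fold with more secretory and gland reads in 14 of 15 animals. By group the share of these 12 genes was highest for injury_only, 5.16 ± 1.54%. It was 2.18 ± 1.49% for Col1, 1.37 ± 1.74% for VFLP_au, 1.07 ± 0.967% for VFLP_man and 0.71 ± 0.561% for control. BPIFB2 of the list was at 0 in control and Col1, and the list's part in the CA12 level was not tested. Genes most like CA12 over animals were TMED2 (r = 0.845) and SEC24D (0.809), both of the early secretory pathway, and TNIP3 (0.810).

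CA2, the widespread high-activity cytosolic enzyme, did not separate the groups. Control animals had 16.1, 36.8 and 29.4 CPM and injury_only animals 21.6, 9.76 and 44.1. Values were 11.5, 39.0 and 7.72 CPM for Col1, 51.6, 5.38 and 3.55 for VFLP_man, and 17.5, 20.7 and 8.43 for VFLP_au. Every pair of groups overlapped, and the adjusted p by edgeR was at least 0.53 in all 10 comparisons. Each SE was about 0.93 to 0.95 on the log2 scale, so a change of 2-fold in either direction lies close to 1 SE. CA2 was higher in the fold with more muscle reads in 8 of 15 animals and in the fold with more erythroid reads, listed because red cells carry this enzyme, also in 8 of 15. KRCC1 (r = 0.855), ELP4 (0.832) and PPP2R3C (0.824) were most like it over animals.

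**Figure D4:**
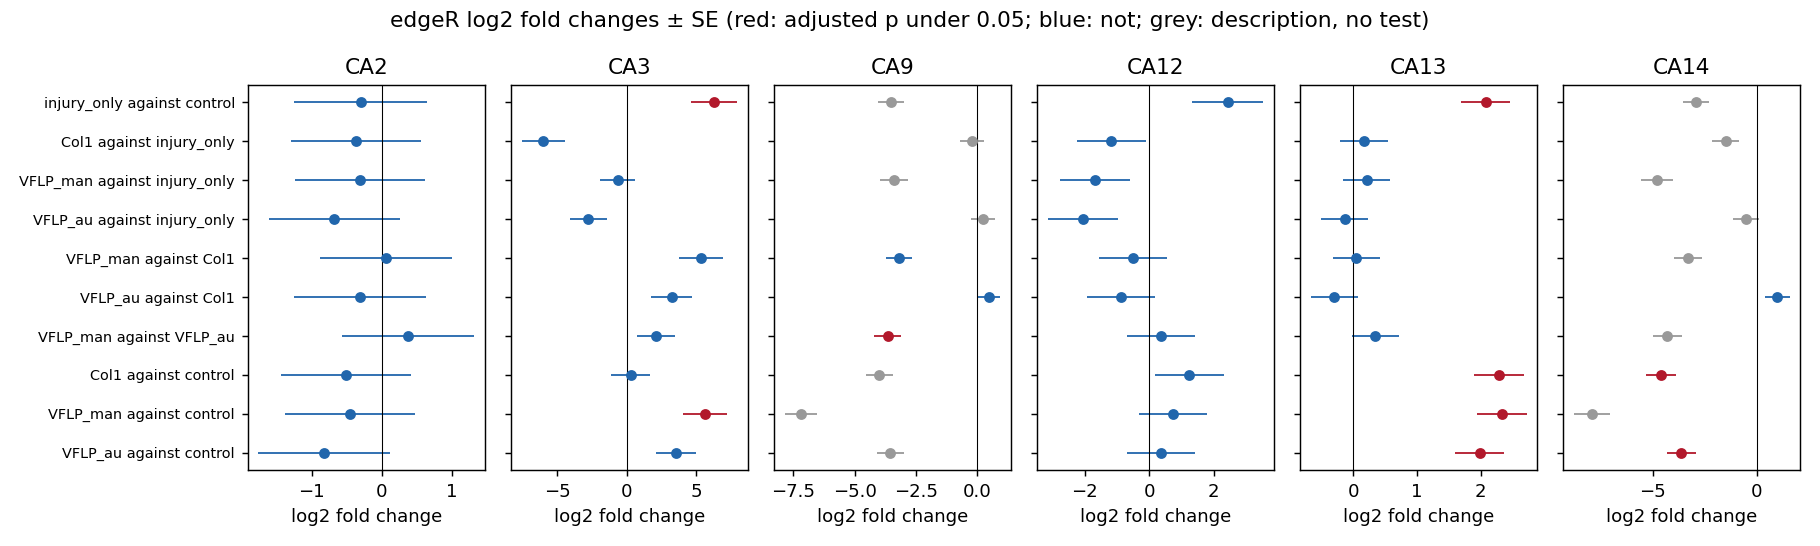
Log2 fold changes of each gene in the 10 group comparisons, as fitted by edgeR, with bars of ± 1 SE. Red points passed an adjusted p of 0.05, blue points did not, and grey points are descriptions with no test. CA13 passed in all 4 comparisons with control and CA2 in none of the 10.

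By comparison, 2 of the 4 members with a printed test (CA3 and CA13) rose in injury_only against control, where 8.33% of genes rose. In Col1 against control CA13 rose and CA14 fell, 2 of 5, with 32.1% of 17770 genes passing (13.5% higher, 18.6% lower). VFLP_man against control gave 2 of 4 (CA3 and CA13), with 37.3% of genes passing, 16.7% higher and 20.5% lower. VFLP_au against control gave 2 of 5 (CA13 higher, CA14 lower), with 27.5% of genes passing, 10.8% higher and 16.7% lower. These shares of all genes are large, so a pass there is common. Against injury_only no member with a printed test passed in edgeR: 0 of 4 in VFLP_man, where 1.06% of genes passed (0.0732% higher, 0.99% lower), and 0 of 4 in each of Col1 and VFLP_au, where 0% of 17770 genes passed. At an unadjusted p under 0.05 there were 0, 1 and 0 members in VFLP_man, Col1 and VFLP_au, and 3051, 2530 and 2289 genes. DESeq2 gave 0, 1 and 0 members, and 1256, 369 and 196 genes. Among the materials, VFLP_man and VFLP_au against Col1 gave 0 of 5 and 0 of 6, with 0% of genes passing, 2 and 1 members and 1832 and 829 genes at an unadjusted p under 0.05, and 2 and 0 members and 389 and 35 genes by DESeq2.

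Right folds were compared with left folds within 14 animals. No member passed, 0 of 6, and 0% of 15301 genes did by edgeR (1316 at an unadjusted p under 0.05, and 14 by DESeq2). The smallest member p was that of CA13 (unadjusted p = 0.106, adjusted p = 0.564). CA3, high mostly in right folds, had an adjusted p of 0.638.

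Of the other carbonic anhydrases, 9 of 10 listed were in the tables and 6 passed the filter. CA4, the capillary enzyme, was the 1 of 6 that passed in injury_only against control, falling from 7.16 ± 4.92 to 0.365 ± 0.224 CPM (edgeR adjusted p = 0.00426). With 22.1% of all genes passing there, 1 of 6 is near the background. CA4 had 48 reads in injury_only and 0 in VFLP_man, where a count of 0 allows up to 3 (adjusted p = 0.0427). In that comparison 1.06% of genes passed, 0.0732% higher and 0.99% lower. CA4 was also lower than control in Col1, VFLP_man and VFLP_au (edgeR adjusted p = 0.00113, 0.000105 and 0.00143), where 32.1%, 37.3% and 27.5% of genes passed. CA1, next to CA13 in gene order and 1 unnamed gene from CA3, stayed under 1 CPM on average in every group. It had 75 reads in control, 14 in VFLP_au and 4 in VFLP_man. Against control CA1 fell in VFLP_man and in VFLP_au (edgeR adjusted p = 0.00129 and 0.0178). Its unstranded count is 0.74 of its strand-specific one, as can happen where genes overlap, so its level is uncertain. CA5B, a mitochondrial form, rose 2.05-fold in VFLP_man against control (22.1 ± 5.44 to 45.7 ± 22.7 CPM, edgeR adjusted p = 0.0255). In that comparison 1 of these 6 thus rose and 2 fell (CA4 and CA1), where 16.7% of genes rose and 20.5% fell. In VFLP_au against control 0 rose and 2 fell (CA4 and CA1), where 10.8% of genes rose and 16.7% fell. CA6, the secreted salivary form, ranged from 0 to 1519 CPM between libraries and passed in no comparison.

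Of 23 genes of bicarbonate, proton and lactate transport, 19 were tested in injury_only against control, where 2 rose and 7 fell, with a median log2 fold change of -0.19. Over all genes 8.33% rose and 13.7% fell. Named by smallest p, the monocarboxylate carrier SLC16A7 fell from 25.4 ± 2.21 to 10.6 ± 0.241 CPM (adjusted p = 0.00167). The chloride-bicarbonate exchanger SLC4A3 fell from 36.5 ± 23.9 to 3.19 ± 1.31 CPM (adjusted p = 0.00193), and the anion exchanger SLC26A6 from 13.1 ± 2.27 to 5.69 ± 0.284 CPM (adjusted p = 0.00214). None of this list passed in edgeR in the comparisons with injury_only (20 tested) or among the materials (19 tested).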

How the data were processed

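Counts of reads per gene were deposited for each of 30 libraries. Per the submitters' processing notes STAR 2.7.10b was used, and the deposited counts are unnormalized whole numbers. Build: not given in the sources used here, nor the annotation. Strand-specific counts (column 4) were used, unstranded ones (column 2) as an alternative, and the 4 summary entries of each table stayed out. Of these, the entries for reads on no gene and for ambiguous reads made 8.75 to 19.2% of their sum with the gene reads. Unmapped and multimapped reads are not in that share. Between 98.7 and 99.9% of the stranded reads of each member were in column 4. Folds of an animal were summed (15 animals), or kept apart for the injury_only animal with a fold in each batch (16 units, with a batch term) in injury_only against control and between materials. Tests used R 4.3.3, edgeR 4.0.16 (quasi-likelihood, TMM, filterByExpr with a minimum count of 10) and Benjamini-Hochberg adjustment over all genes tested, with 0.05 as threshold. SE is the absolute log2 fold change over the root of F. DESeq2 1.42.0 was an alternative. Log2 CPM used a prior count of 2. The fit was tested on simulated data.

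Members, comparisons, 15 gene lists and alternatives were chosen with earlier results of these data known. A member's fold change is printed where it passed or the animals do not overlap, with some others added to show a range. List genes were named as up to 3 of smallest p, and the 3 most similar genes by Pearson r. CA5B, CA1 and CA6 were named by their place in the family. Group labels say that animals are separate, and p-values measure the spread between the units fitted, which are animals in most comparisons. In injury_only against control and between materials, the folds of the injury_only animal split over batches entered as separate units. The batch term of these main fits rests on that animal's batch D fold alone. Replicate numbers are shared between groups but name different animals.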

Additional observations from a re-analysis of the deposited data

Results flagged for a closer look

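The left fold of control animal 1 had 8.61 CPM of CA2, and the next lowest of the 6 control libraries had 23.5 CPM. That gap is 0.632 of the group's range on the log2 scale, beyond Dixon's 95% critical value of 0.625 for 6 samples. It was the only mark among 30 sets of 6 libraries (6 genes in 5 groups), where chance marks about 1 in 20, and folds of 1 animal are not independent. The same fold had the lowest muscle share of the control libraries, 0.715%. It also had the lowest CA14 and CA9 of them, at 21.3 and 3.64 CPM.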

How the results depend on the processing

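Counts of members that passed changed as follows. In left folds alone they were 0 for injury_only and Col1 against control, 1 for VFLP_man against control, and 0 for VFLP_man against VFLP_au, which was also 0 in right folds alone. The muscle covariate gave 0 for VFLP_man against VFLP_au and for all 4 injured groups against control. Handling batch the other way gave 0 for VFLP_man against VFLP_au and for the 3 materials against control. DESeq2 gave 1 for Col1 against injury_only and 2 for VFLP_man against Col1. DESeq2's size factors in edgeR and the replicate number as a block each gave 0 for VFLP_man against VFLP_au. The replicate block changed no other count. Same-numbered animals of different groups had a median correlation of deviations of -0.0289 (30 pairs), so the numbers do not pair them. Leaving out 1 animal gave 1 to 2 for injury_only against control and 0 to 1 for VFLP_man against VFLP_au. Log2 fold changes changed sign with a batch term for CA14 in Col1 against injury_only (1.86) and for CA9 in VFLP_man against injury_only (1.40), Col1 against control (1.09) and VFLP_au against control (1.55). That term rests on 1 injury_only library. Other causes were not tested. Leaving out that library, or the control library of lowest depth, both chosen after seeing the data, changed no count by over 1.5 times. With 1 to 5 reads of CA9 in several libraries, depth limits its level there.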
